A study of Mus musculus with 12 samples.

Results

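The genes described here are the enzymes of glycolysis in mouse hematopoietic stem cells, with the glucose and lactate carriers, the pyruvate dehydrogenase kinases, the phosphofructokinase-fructose bisphosphatases and the genes of the hypoxia-inducible factor (HIF) system. They were taken by symbol from a fixed list, so that 34 of the 35275 gene rows of the expression table were members; the rule itself uses names and no measured value. RNA was sequenced from flow-sorted hematopoietic stem cells of C57BL/6 mice, with 3 libraries in each of 4 groups. Thpo-/- (KO) mice given Romiplostim, a thrombopoietin mimetic, for 10 days at 100 μg/kg per day formed the first group, and untreated KO mice the second. Thpo+/+ (WT) mice given the same Romiplostim course formed the third, and untreated WT mice the fourth. Thpo encodes thrombopoietin, a cytokine that maintains stem cells and drives platelet formation. The protocol gives an intravenous saline control while the group labels read untreated, and the age of the animals is not given in the labels. Neither is the source of the deletion nor the surface markers of the sort.

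Glycolysis splits glucose into pyruvate in the cytosol, and lactate dehydrogenase turns pyruvate into lactate that leaves the cell through monocarboxylate carriers. Quiescent stem cells of the marrow are known for relying on this route, and pyruvate dehydrogenase kinases hold pyruvate back from the mitochondria. The HIF alpha subunits are degraded after hydroxylation by Egln enzymes when oxygen is present, and otherwise switch on carriers and enzymes of the same route.

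The libraries held an estimated 2.77e+07 to 3.55e+07 fragments, read from the steps between low values, and 11262 to 12374 genes at 1 FPKM (fragments scaled to transcript length and sequencing depth) or more. Thpo was listed at 0 in 10 of the 12 libraries, with 0.0208 FPKM in untreated WT library 3 and 0.0426 FPKM in Romiplostim WT library 2, near the 0.0322 to 0.0413 FPKM that 3 fragments give, so it does not check the genotype labels. The sorted cells also carried markers of other cells: macrophage markers averaged 5.71 to 7.21 on the log2(FPKM + 1) scale in untreated KO libraries, against 1.81 to 2.23 in untreated WT libraries. The 10 stem cell markers ran the other way, at 3.36 to 3.85 in untreated KO libraries and 5.35 to 5.62 in untreated WT libraries. In bulk samples, fewer cells of a type and less RNA per cell cannot be told apart. Y-linked genes averaged above 1 on the log2(FPKM + 1) scale in 7 libraries and below it in Romiplostim KO libraries 1, 2 and 3, Romiplostim WT library 1 and untreated WT library 2, where the highest value of such a gene was 0.376 FPKM (Eif2s3y, untreated WT library 2). Romiplostim KO library 1 stood apart from the other libraries of its group, with the lowest value for 28 of the 34 members. Untreated KO library 3 was above the other libraries of its group in neutrophil markers (11.3, against 10.1 and 9.52), erythroid markers (8.36, against 7.14 and 6.89) and stromal and endothelial markers (4.65, against 3.35 and 3.34 on the same scale). The 3 samples of a group were sequenced in the same run, per the study's design text, so run and group cannot be told apart. Nothing in the labels says that the samples of a group came from separate animals, so p-values measure only the spread between these samples.

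The members spanned from some of the highest levels in the transcriptome to the edge of detection. Averaged over the 12 libraries, Gapdh was at 3302 FPKM, Ldha at 2472, Eno1 at 1210 and Tpi1 at 1009 FPKM. Another 9 members averaged 100 FPKM or more, 10 averaged 10 to 100, and 9 averaged 1 to 10. Pdk4, a starvation-induced pyruvate dehydrogenase kinase, averaged 0.963 FPKM, and Epas1, the HIF alpha subunit best known from endothelium, averaged 0.276 FPKM. Epas1 was the only member below the requirement of 1 FPKM in 3 libraries, so that 33 members were tested. Its values were 0.187, 0.486 and 1.31 FPKM in untreated KO libraries, against 0.107, 0.174 and 0.117 FPKM in untreated WT libraries.

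**Figure D1:**
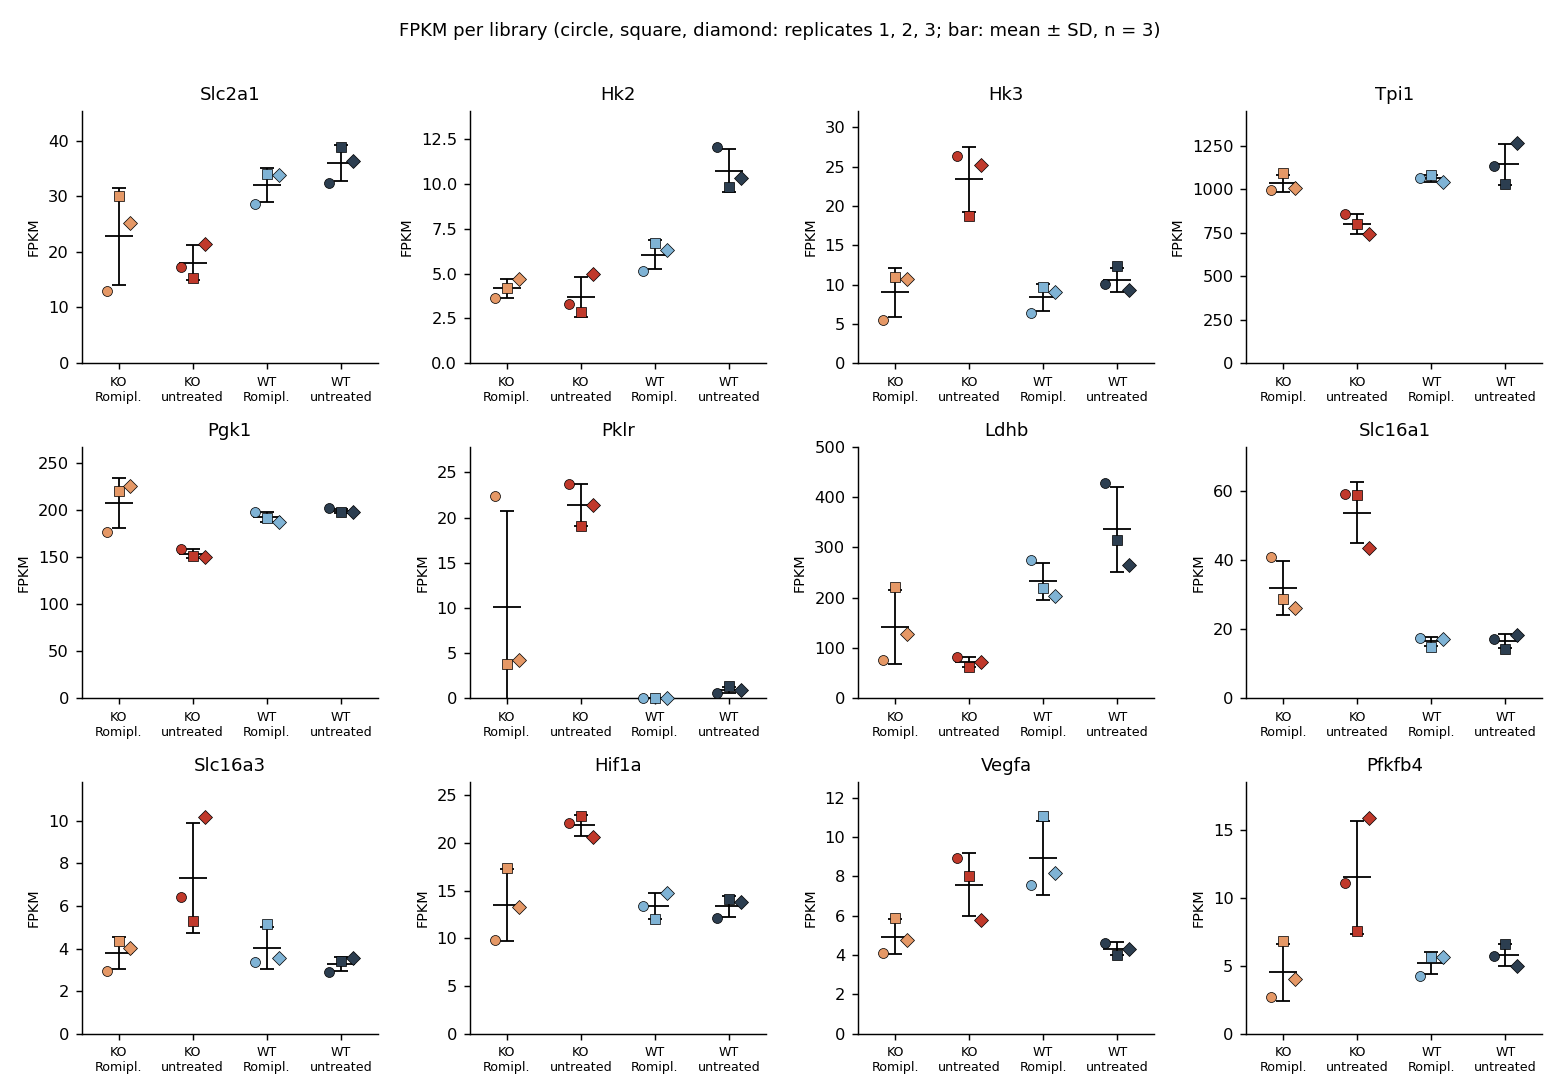
FPKM of 12 members in each library (vertical axis, starting at 0) by group (horizontal axis); circles, squares and diamonds are replicates 1, 2 and 3, and the bars give the mean ± SD (n = 3). The lower SD bar of Pklr in Romiplostim KO libraries passes below 0 and is not drawn there; Slc16a1 and Pklr are high in all 3 untreated KO libraries and Hk2 and Ldhb are low in them.

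In untreated mice, sorted KO cells had more RNA of the lactate carriers, Hif1a and Pklr (pyruvate kinase of red cells and liver) than sorted WT cells. Hk2, Ldhb and the glucose carriers had less RNA in the sorted KO cells. The KO libraries also held more RNA of markers of other cells, as given above for macrophages. Of the 33 members tested, 8 were higher and 8 lower in KO (limma on log2(FPKM + 1), Benjamini-Hochberg adjusted p under 0.05), and 17 did not pass. This is a share close to the background, since 45.1% of all genes tested passed (22.1% higher and 23.0% lower). The groups did not overlap for 22 of the 33 members, beside 56.3% of all genes. The median log2 difference was -0.32 over the members and -0.03 over all genes.

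Carriers stood at both ends of the pathway. Slc16a1, the monocarboxylate carrier that moves lactate and pyruvate (ENSMUSG00000032902, chromosome 3, mm10 position 104638668 to 104658462), was at 59.1, 58.8 and 43.6 FPKM in untreated KO libraries, against 17.3, 14.3 and 18.3 FPKM in untreated WT libraries. Every KO library was above every WT library, and the log2 difference was 1.63 ± 0.18 (SE; adjusted p = 4.5e-05). Slc16a3, a lactate exporter, was at 6.44, 5.27 and 10.2 FPKM in KO libraries and 2.90, 3.40 and 3.53 FPKM in WT libraries, again with no overlap (log2 difference 0.91 ± 0.22, adjusted p = 0.00561). Its highest value came from untreated KO library 3, and the call held without that library. The glucose carrier Slc2a1 was lower, at 17.4, 15.2 and 21.5 FPKM in KO libraries and 32.5, 38.9 and 36.4 FPKM in WT libraries. The log2 difference of Slc2a1 was -0.96 ± 0.24 (adjusted p = 0.00734), and the groups did not overlap. Slc2a3, a high-affinity glucose carrier, averaged 36.6 ± 7.43 FPKM in KO and 55.0 ± 9.31 FPKM in WT (SD, n = 3 each; adjusted p = 0.0485).

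The hexokinases, which trap glucose in the cell as its phosphate, moved apart. Hk2 (chromosome 6, mm10 position 82725025 to 82774454) encodes a hexokinase, 1 of those that can bind the outer mitochondrial membrane. Its RNA was at 3.30, 2.83 and 4.96 FPKM in untreated KO libraries, against 12.1, 9.85 and 10.3 FPKM in untreated WT libraries. The KO libraries were all far below the WT libraries (log2 difference -1.34 ± 0.18, adjusted p = 0.000142). Hk3, a hexokinase known from myeloid cells, ran the other way, at 26.3, 18.7 and 25.2 FPKM in KO libraries and 10.1, 12.3 and 9.32 FPKM in WT libraries (log2 difference 1.07 ± 0.24, adjusted p = 0.00403). Hk1, the most abundant hexokinase, averaged 184 ± 54.5 FPKM in KO and 164 ± 15.4 FPKM in WT and did not pass (adjusted p = 0.57). In the summed hexokinase FPKM, Hk2 took 1.83% ± 0.74 in KO and 5.80% ± 0.45 in WT (SD, n = 3 each), and Hk3 11.3% ± 1.97 in KO and 5.72% ± 0.83 in WT. Hk1 held 86.8% in KO and 88.5% in WT.

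Of the enzymes between hexokinase and pyruvate kinase, Tpi1, Pgk1, Aldoa and Eno2 were lower in untreated KO and Pfkm was higher. Tpi1, which interconverts the triose phosphates, was at 857, 800.5 and 740.5 FPKM in KO libraries, against 1131, 1031 and 1266 FPKM in WT libraries. All KO libraries were below all WT libraries, and the log2 difference was -0.51 ± 0.12 (adjusted p = 0.0051). Pgk1, the first ATP-forming step, averaged 154 ± 4.83 FPKM in KO and 199 ± 2.27 FPKM in WT (adjusted p = 0.0155). Aldoa, the aldolase of muscle and red cells, averaged 647 ± 63.4 FPKM in KO and 880 ± 49.9 FPKM in WT (adjusted p = 0.0264). The neuronal enolase Eno2, at 1.15 ± 0.346 FPKM in KO and 2.68 ± 0.222 FPKM in WT, was also lower (adjusted p = 0.0343). Pfkm, the muscle phosphofructokinase, was higher, at 22.9 ± 4.80 FPKM in KO and 15.2 ± 2.87 FPKM in WT (adjusted p = 0.0229). Gapdh, Eno1, Gpi1, Pgam1, Pfkl, Pfkp and Aldoc did not pass, with adjusted p between 0.0919 and 0.937. The values of Pfkp are uncertain, since it shares 748 exon bases with Pitrm1 on the opposite strand and the counting is not stated to use strand.

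Pyruvate kinase, the last step, differed most in its minor gene. Pklr encodes the pyruvate kinase of red cells and liver (ENSMUSG00000041237, chromosome 3, mm10 position 89136142 to 89146784), and its red cell transcript starts upstream of the liver one. It was at 23.7, 19.1 and 21.3 FPKM in untreated KO libraries, against 0.634, 1.32 and 0.895 FPKM in untreated WT libraries, so that the groups were far apart (log2 difference 3.53 ± 0.46, adjusted p = 0.000127). Pklr made up 5.61% ± 0.36 of the summed Pkm and Pklr FPKM in KO and 0.17% ± 0.10 in WT. Pklr shares 711 exon bases with Hcn3 on the opposite strand, which was at 0.315 to 1.09 FPKM, the size of the Pklr values in untreated WT. Pkm itself averaged 359 ± 19.2 FPKM in KO and 618 ± 178 FPKM in WT and did not pass (adjusted p = 0.0685). The RefSeq promoters of Pklr are shown because of this contrast, each from 250 bases before to 50 bases after a transcript start in GRCm38.p6, 5′ to 3′. The upstream one lies at chr3:89135892-89136191, plus strand, and the downstream one at chr3:89136373-89136672, plus strand. Capitals mark the letters AGATAA, found by a search of both strands for a T or A before GATA and an A or G after it, as GATA factors bind.
Pklr upstream: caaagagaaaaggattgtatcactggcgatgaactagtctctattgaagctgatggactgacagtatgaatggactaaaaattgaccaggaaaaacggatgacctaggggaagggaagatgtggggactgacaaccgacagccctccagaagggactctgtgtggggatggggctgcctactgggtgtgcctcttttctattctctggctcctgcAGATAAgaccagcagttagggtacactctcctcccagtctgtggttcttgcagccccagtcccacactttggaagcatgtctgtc
Pklr downstream: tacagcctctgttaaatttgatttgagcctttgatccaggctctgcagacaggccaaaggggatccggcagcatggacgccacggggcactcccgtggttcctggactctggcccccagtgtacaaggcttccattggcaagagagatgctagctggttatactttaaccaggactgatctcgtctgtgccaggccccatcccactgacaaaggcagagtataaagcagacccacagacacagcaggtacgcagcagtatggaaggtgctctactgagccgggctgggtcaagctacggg
The upstream promoter held 1 match and the downstream promoter 0. Such letters stood in 29.8% of all 32851 RefSeq promoters of this length and in 12 of 48 member promoters (25.0%).

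Erythroid markers moved with Pklr: their mean level was 6.89 to 8.36 on the log2(FPKM + 1) scale in untreated KO libraries and 4.48 to 5.02 in untreated WT libraries, and 7 of the 9 were called higher in KO. Their summed level was 3029 to 9731 FPKM in KO and 489 to 928 FPKM in WT, and no marker of that list was at 0 throughout a group. Klf1, an erythroid transcription factor, averaged 220 FPKM in KO and 16.8 FPKM in WT. Markers of neutrophils (7 of 8 called higher), macrophages (8 of 8), B cells (9 of 9 tested), mast cells and basophils (5 of 5), T and NK cells (5 of 6) and stroma and endothelium (6 of 6 tested) were also higher in KO, as were all 10 cell cycle genes, while 9 of 10 stem cell markers were lower. Neutrophil markers summed to 7562 to 40662 FPKM in KO and 1342 to 3595 FPKM in WT, and B cell markers to 1692 to 4211 FPKM in KO and 86.5 to 98.4 FPKM in WT. Of the megakaryocyte markers, 0 of 6 were called, with a median log2 difference of -0.002. Of all genes tested, 22.1% were called higher and 23.0% lower in untreated KO. The marker lists were chosen with earlier results of these data known. The part of these cell types in the member differences was not tested.

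**Figure D2:**
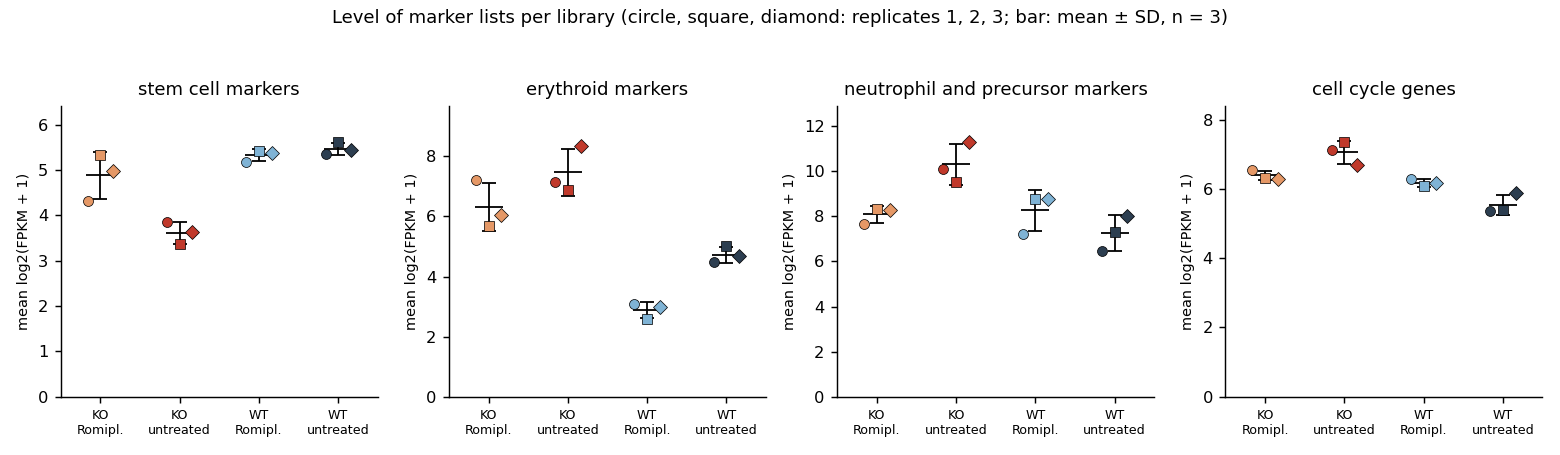
Mean log2(FPKM + 1) of the stem cell, erythroid and neutrophil markers and of the cell cycle genes (vertical axis, starting at 0) in each library by group (horizontal axis), with the mean ± SD of the group (n = 3). The neutrophil list and the cell cycle genes are highest in the untreated KO libraries and the stem cell list is lowest in them; the erythroid list of Romiplostim KO library 1 is within the range of the untreated KO libraries.

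Beyond pyruvate, Ldhb separated the genotypes. Ldhb, the lactate dehydrogenase subunit of heart that favours lactate oxidation (chromosome 6, mm10 position 142490249 to 142507957), was at 81.7, 63.0 and 72.3 FPKM in untreated KO libraries, against 429, 314 and 264 FPKM in untreated WT libraries. The highest KO library was below every WT library (log2 difference -2.18 ± 0.31, adjusted p = 0.000229). Ldha, the subunit that favours lactate formation, averaged 2108 ± 135 FPKM in KO and 2491 ± 195 FPKM in WT and did not pass (adjusted p = 0.155). Ldhb made up 3.32% ± 0.41 of the summed Ldha and Ldhb FPKM in KO and 11.8% ± 2.39 in WT. None of the 4 pyruvate dehydrogenase kinases passed: Pdk1 averaged 44.5 ± 6.09 FPKM in KO and 34.7 ± 4.34 FPKM in WT (adjusted p = 0.0696). Of the regulators that set the fructose bisphosphate activating phosphofructokinase, Pfkfb4 was higher, at 11.5 ± 4.19 FPKM in KO and 5.79 ± 0.817 FPKM in WT (adjusted p = 0.0303), and Pfkfb3 did not pass (adjusted p = 0.342).

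**Figure D3:**
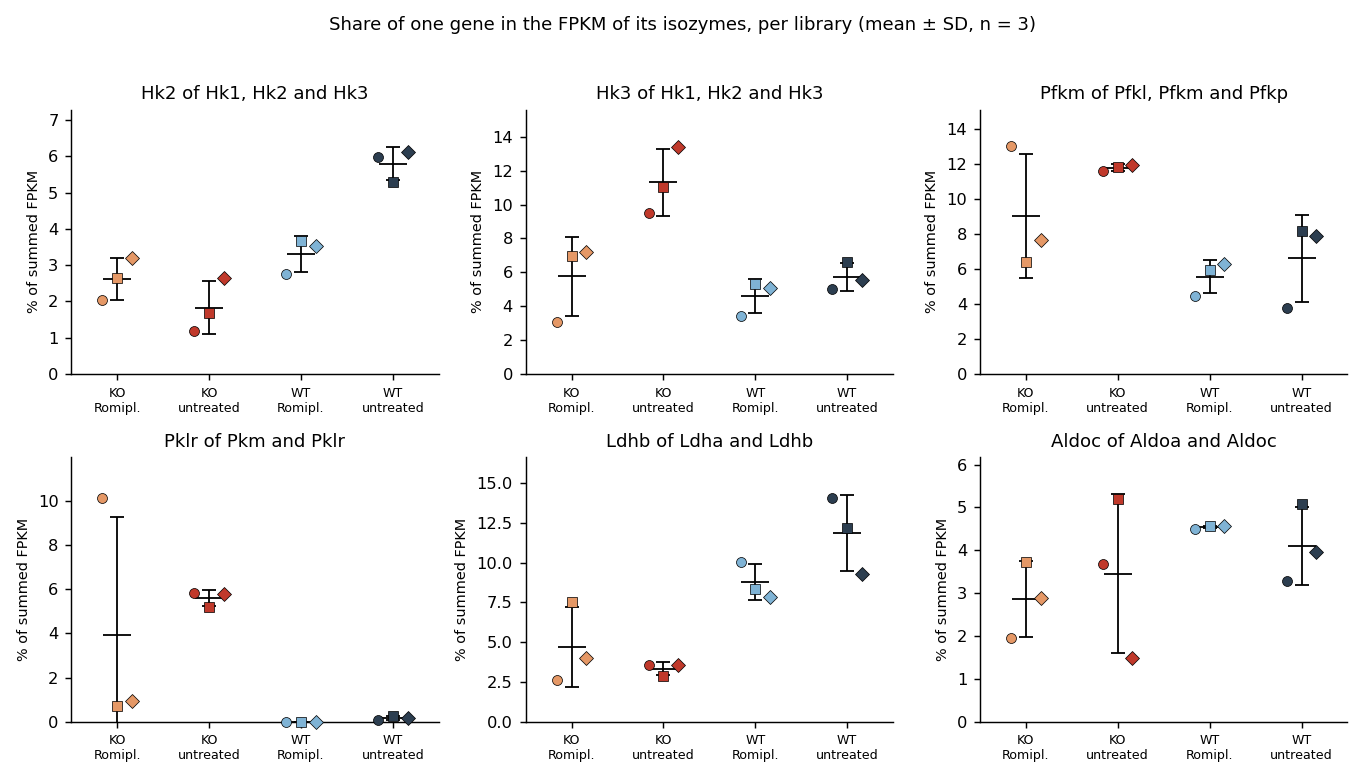
Share of each minor isozyme in the summed FPKM of its enzyme (vertical axis, percent, starting at 0) by library and group (horizontal axis), with mean ± SD (n = 3; the bar of Pklr in Romiplostim KO is not drawn below 0). In untreated KO libraries the Hk2 and Ldhb shares are below and the Hk3 and Pklr shares above those of all 3 untreated WT libraries.

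Of the HIF genes, Hif1a, the oxygen-sensitive subunit, averaged 21.8 ± 1.08 FPKM in untreated KO and 13.4 ± 1.11 FPKM in untreated WT, without overlap (log2 difference 0.67 ± 0.17, adjusted p = 0.00771). Vegfa, a vascular growth factor and HIF target, averaged 7.58 ± 1.60 FPKM in KO and 4.31 ± 0.327 FPKM in WT (log2 difference 0.68 ± 0.18, adjusted p = 0.0108). The prolyl hydroxylases Egln1 and Egln3, which mark HIF alpha subunits for decay, did not pass (adjusted p = 0.195 and 0.173). The letters ACGTG or GCGTG are the core of the sequence HIF binds. They stood on either strand in 36 of the 48 member promoters (75.0%) and in 43.8% of all promoters. The 48 promoters belong to 32 members, some with overlapping windows, and the promoters compared were not matched for base content. Promoters of 4 called members are shown because they hold this core and the genes went in opposite directions: Slc16a1 (chr3:104638414-104638713, plus strand), higher in KO, and Hk2 (chr6:82774405-82774704, minus strand), Ldhb (chr6:142507908-142508207, minus strand) and Slc2a1 (chr4:119108495-119108794, plus strand), lower in KO. Capitals mark the core on either strand.
Slc16a1: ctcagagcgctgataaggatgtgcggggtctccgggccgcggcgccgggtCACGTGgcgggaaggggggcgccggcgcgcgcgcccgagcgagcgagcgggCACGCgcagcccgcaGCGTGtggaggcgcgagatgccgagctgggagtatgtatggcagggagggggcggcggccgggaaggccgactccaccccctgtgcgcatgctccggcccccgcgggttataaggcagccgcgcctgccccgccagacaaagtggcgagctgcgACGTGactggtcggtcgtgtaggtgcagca
Hk2: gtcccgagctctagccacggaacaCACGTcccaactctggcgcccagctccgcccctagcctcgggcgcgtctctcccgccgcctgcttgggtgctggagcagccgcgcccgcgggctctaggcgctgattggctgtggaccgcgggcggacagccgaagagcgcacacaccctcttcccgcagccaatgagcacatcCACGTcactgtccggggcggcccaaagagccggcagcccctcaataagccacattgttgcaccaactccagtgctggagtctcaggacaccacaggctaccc
Ldhb: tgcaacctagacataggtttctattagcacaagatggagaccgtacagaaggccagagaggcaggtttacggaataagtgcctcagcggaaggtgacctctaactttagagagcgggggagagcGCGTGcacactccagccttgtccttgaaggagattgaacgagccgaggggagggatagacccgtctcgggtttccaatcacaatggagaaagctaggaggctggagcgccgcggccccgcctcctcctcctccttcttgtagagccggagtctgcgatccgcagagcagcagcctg
Slc2a1: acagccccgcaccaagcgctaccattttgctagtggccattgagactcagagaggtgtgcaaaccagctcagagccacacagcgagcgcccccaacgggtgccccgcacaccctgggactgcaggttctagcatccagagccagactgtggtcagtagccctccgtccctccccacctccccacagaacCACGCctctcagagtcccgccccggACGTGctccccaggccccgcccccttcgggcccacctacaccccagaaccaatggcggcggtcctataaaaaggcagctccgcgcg
The search matched the core 5 times in the Slc16a1 promoter, 2 times in those of Hk2 and Slc2a1, and 1 time in that of Ldhb. In Slc16a1, 2 of the matches overlap, as the 2 strands of the same CACGTG. A match describes the letters only.

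Of the 16 calls in untreated KO, Hk2, Hk3, Pklr, Ldhb, Slc2a1, Slc16a1, Slc16a3, Hif1a and Vegfa passed under all 23 alternatives tried, while those of Pfkm, Aldoa, Tpi1, Pgk1, Eno2, Slc2a3 and Pfkfb4 were lost under 1 to 12 of them. Tpi1 reached an adjusted p of 0.354 at its weakest (range 0.000298 to 0.354) and Slc2a3 0.182 (range 0.00996 to 0.182).

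**Figure D4:**
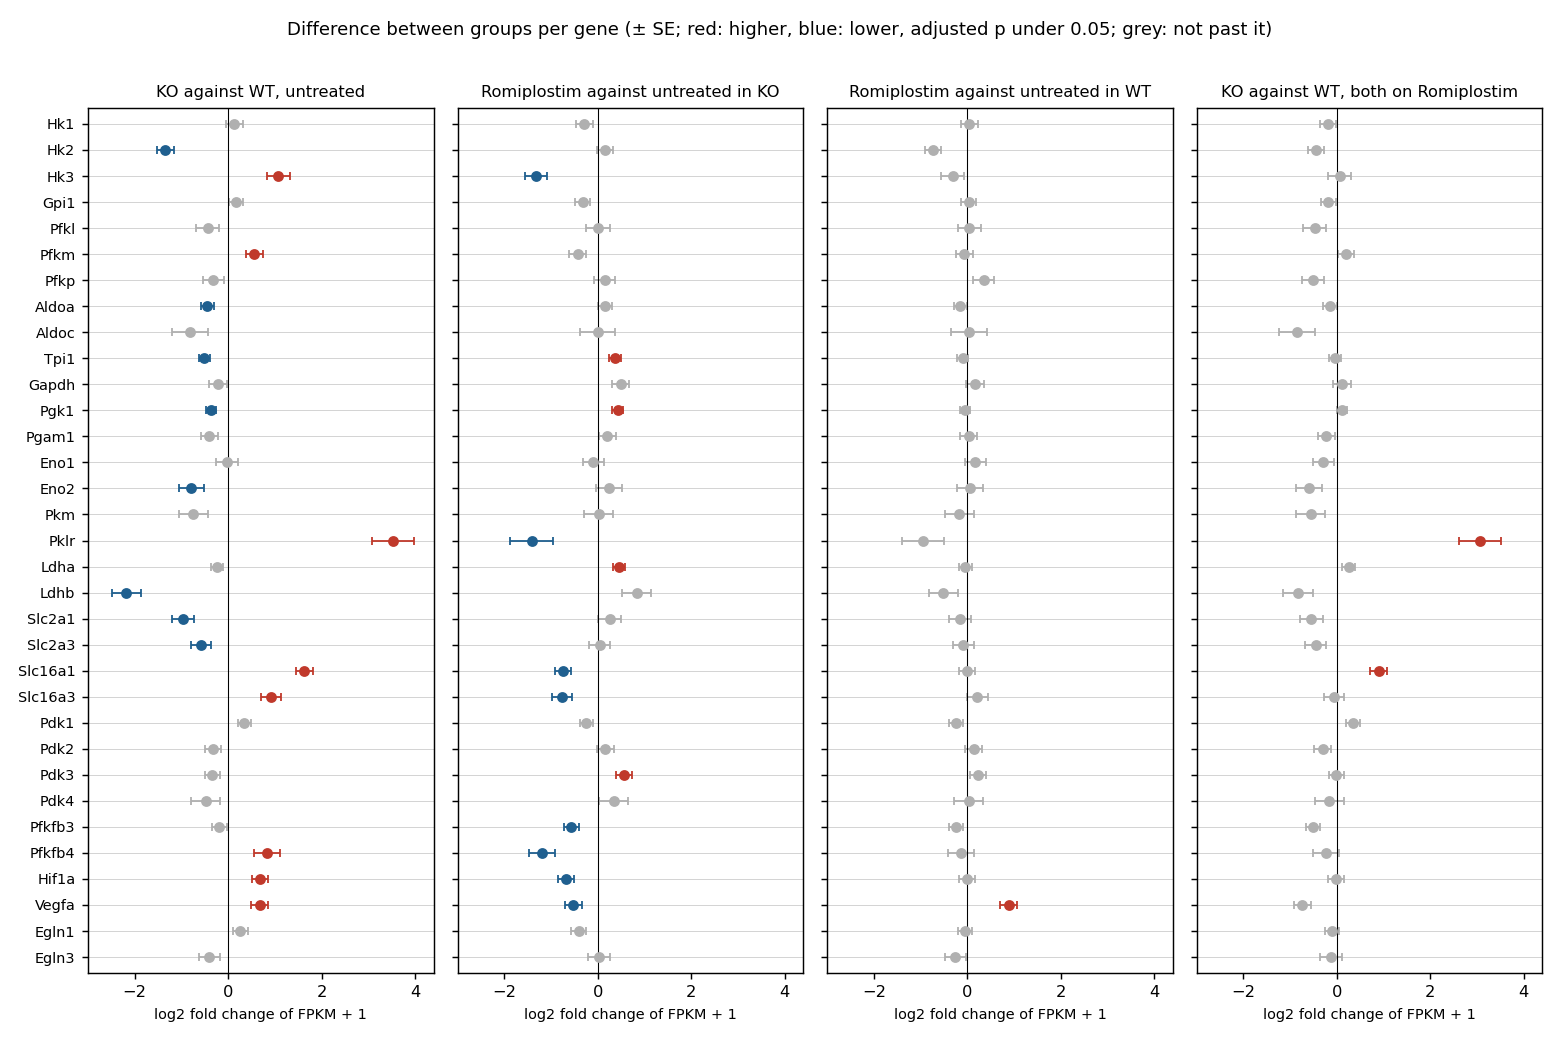
Log2 differences of the 33 tested members on the log2(FPKM + 1) scale (horizontal axis, first-named group minus the other; bars are SE) in the group comparisons, with members down the vertical axis. Red points were called higher, blue points lower, and grey points did not pass. Slc16a1 and Pklr stand farthest right and Ldhb and Hk2 farthest left in untreated KO against untreated WT.

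In WT mice, the growth factor gene Vegfa was the only member called with Romiplostim. It was at 7.59, 11.1 and 8.15 FPKM in Romiplostim WT libraries, against 4.63, 3.98 and 4.33 FPKM in untreated WT libraries. Each treated library was above each untreated one, and the log2 difference was 0.89 ± 0.18 (adjusted p = 0.0319). That is 1 of 33 members, beside 1.84% of all genes tested (0.866% higher and 0.975% lower), so the share is near the background. The groups did not overlap for 8 of the 33 members, beside 26.8% of all genes. Hk2 was at 5.13, 6.70 and 6.33 FPKM in treated WT libraries and 12.1, 9.85 and 10.3 FPKM in untreated WT libraries, and missed the threshold although the groups did not overlap (log2 difference -0.74 ± 0.18, adjusted p = 0.0622). Pklr was listed at 0 in all 3 treated WT libraries, against 0.634, 1.32 and 0.895 FPKM in untreated WT libraries (adjusted p = 0.409). It was the only gene of the table at 0 in all 3 treated WT libraries and above 0.5 FPKM in the other 9 libraries. By the same rule, 4 genes were at 0 in untreated WT libraries only, and 0 genes in either KO group. The erythroid list was at 2.59 to 3.09 in treated WT libraries and 4.48 to 5.02 in untreated WT libraries on the log2(FPKM + 1) scale, and its part in the Pklr values was not tested.

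Vegfa lost its call when any library of the WT groups was left out (adjusted p 0.0659 to 0.152) or Romiplostim KO library 3 (0.0503), within 0.000531 to 0.152 over all alternatives. With replicate number as a block in the WT libraries alone, 3 members were called in place of 1, Vegfa (adjusted p = 0.0459), Pklr (0.027) and Ldhb (0.0385), with 864 genes in place of 236; Hk2 was not (0.0557), and it passed under 5 of 24 alternatives.

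In KO mice, the lactate carriers, Hk3, both Pfkfb genes, Hif1a, Pklr and Vegfa were lower with Romiplostim. Pgk1, Tpi1, Ldha and Pdk3 were higher with Romiplostim. The calls differed in strength: that of Vegfa was lost under 16 of 23 alternatives, Pklr under 14, Tpi1 under 13 and Hk3 under 1. The alternative that took the Hk3 call had the Y-linked level in the model, and under it no member was called. The calls were 4 members higher and 8 lower of 33, and 21 did not pass, beside 29.6% of all genes tested (10.7% higher and 18.9% lower). The groups did not overlap for 11 of the 33 members, beside 40.3% of all genes. The median log2 difference was 0.02 over the members and -0.09 over all genes.

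Hk3 was at 5.46, 11.0 and 10.7 FPKM in Romiplostim KO libraries, against 26.3, 18.7 and 25.2 FPKM in untreated KO libraries, with no overlap (log2 difference -1.32 ± 0.24, adjusted p = 0.0025). Slc16a1 was at 41.0, 28.8 and 26.3 FPKM in treated KO libraries and 59.1, 58.8 and 43.6 FPKM in untreated KO libraries (log2 difference -0.74 ± 0.18, adjusted p = 0.01). Both groups of Slc16a1 were separate, though treated library 1 was close to the lowest untreated one. Slc16a3 was at 2.94, 4.36 and 4.04 FPKM in treated and 6.44, 5.27 and 10.2 FPKM in untreated KO libraries (adjusted p = 0.0226). Pfkfb4, which raises the activator of phosphofructokinase or removes it, was at 2.73, 6.80 and 4.02 FPKM in treated and 11.1, 7.54 and 15.9 FPKM in untreated KO libraries (log2 difference -1.19 ± 0.28, adjusted p = 0.00892). Its relative Pfkfb3, the form with the highest kinase activity, was at 3.64, 5.31 and 4.22 FPKM in treated and 6.43, 7.98 and 6.40 FPKM in untreated KO libraries (adjusted p = 0.0188). In all of these genes the treated libraries lay below the untreated ones.

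Hif1a was at 9.85, 17.4 and 13.3 FPKM in Romiplostim KO libraries, against 22.1, 22.8 and 20.7 FPKM in untreated KO libraries (log2 difference -0.69 ± 0.17, adjusted p = 0.0116). The treated libraries differed more among themselves than the untreated ones, but no value was shared. Pgk1 was at 177, 220 and 226 FPKM in treated and 159, 151 and 150.5 FPKM in untreated KO libraries, and rose (log2 difference 0.42 ± 0.11, adjusted p = 0.0138). Ldha was at 2838, 2725 and 3061 FPKM in treated and 2217, 2149 and 1957 FPKM in untreated KO libraries (log2 difference 0.45 ± 0.13, adjusted p = 0.0241). For both, every treated library was above every untreated one. Pdk3, the most abundant pyruvate dehydrogenase kinase here, averaged 207 ± 48.2 FPKM in treated and 139 ± 21.2 FPKM in untreated KO (adjusted p = 0.0258), and Tpi1 1032 ± 51.4 FPKM in treated and 799 ± 58.3 FPKM in untreated KO (adjusted p = 0.0389).

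Pklr was split among the treated KO libraries, at 22.3 FPKM in library 1, 3.81 in library 2 and 4.20 in library 3, against 23.7, 19.1 and 21.3 FPKM in untreated KO libraries. Library 1 was thus at the untreated level, and the other libraries were far below it (log2 difference -1.42 ± 0.46, adjusted p = 0.0368). The erythroid list was at 7.23 in that library and 5.67 or more in the others, and its stem cell list was at 4.33, the lowest of the group; their part was not tested. Ldhb was at 76.0, 221 and 127 FPKM in treated KO libraries and 81.7, 63.0 and 72.3 FPKM in untreated KO libraries, with overlap, and was not called (adjusted p = 0.0635). Hk2 was at 3.62, 4.17 and 4.72 FPKM in treated and 3.30, 2.83 and 4.96 FPKM in untreated KO libraries (adjusted p = 0.529).

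This comparison uses the same untreated KO libraries as the comparison of untreated genotypes, so their values are not independent. Side by side, the log2 difference was 1.07 for Hk3 in untreated KO against WT and -1.32 with Romiplostim in KO. For Slc16a1 these were 1.63 and -0.74, for Hif1a 0.67 and -0.69, and for Pfkm 0.56 and -0.43, the last not called with Romiplostim. The untreated KO libraries enter the 2 differences with opposite sign. Of all genes tested, 18.9% were called lower and 10.7% higher with Romiplostim in KO. How many of all genes were called in both comparisons was not computed. Of the 8 members higher in untreated KO, 7 were called lower with Romiplostim in KO. Of the 8 members lower in untreated KO, 2 were called higher with Romiplostim in KO and 6 were not called. Those 6 include Hk2 (-1.34 and 0.16), Slc2a1 (-0.96 and 0.26) and Ldhb (-2.18 and 0.83). The macrophage markers (8 of 8 called lower with Romiplostim in KO), neutrophil markers (5 of 8) and B cell markers (9 tested, 9 called lower) moved in the same comparison, and 9 of 10 stem cell markers were higher. Their part in the member differences was not tested.

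None of the 12 calls remained when the level of Y-linked RNA entered the model: it was high in all untreated and near 0 in all treated KO libraries, so that treatment and that difference cannot be told apart. All 12 log2 differences kept their sign in that model, for example Hk3 at -1.24 (adjusted p = 0.0782), Slc16a1 at -0.65 and Pgk1 at 0.40, with Vegfa at -0.31. Scaling also moved the balance of calls, since the higher share of all called genes was 36.3% as fitted, 47.5% after median-of-ratios scaling and 58.2% after quantile normalization, which moved the median of all genes to 0.07.

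Among mice that all received Romiplostim, sorted KO and WT cells differed in 2 of the 33 members, both higher in KO. Of all genes tested, 1.37% passed (0.632% higher and 0.741% lower). The groups did not overlap for 8 of the 33 members, beside 25.1% of all genes. Slc16a1 was at 41.0, 28.8 and 26.3 FPKM in Romiplostim KO libraries, against 17.5, 14.9 and 17.1 FPKM in Romiplostim WT libraries, with every KO library above every WT library (log2 difference 0.89 ± 0.18, adjusted p = 0.0356). Pklr was at 22.3, 3.81 and 4.20 FPKM in KO libraries and listed at 0 in the 3 WT libraries (adjusted p = 0.00965). No fold is given against values of 0. The erythroid markers were at 5.67 to 7.23 in KO libraries and 2.59 to 3.09 in WT libraries on the log2(FPKM + 1) scale, and their part in the Pklr difference was not tested. Vegfa averaged 4.92 ± 0.895 FPKM in KO and 8.94 ± 1.88 FPKM in WT, and Ldhb 141 ± 73.5 FPKM in KO and 232 ± 37.1 FPKM in WT. Neither passed (adjusted p = 0.0695 and 0.179). Hif1a and Hk3, called between the untreated genotypes, had adjusted p of 0.972 and 0.906 here.

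Slc16a1 lost its call without Romiplostim KO library 1 (adjusted p = 0.0651), without any Romiplostim WT library (0.104 to 0.187) or without untreated WT library 3 (0.0565), within a range of 0.000998 to 0.205 over all alternatives. Pklr lost its call without Romiplostim WT library 2 (adjusted p = 0.0536, range 2.31e-05 to 0.111). Both calls were also lost with only the groups compared and with the Y-linked level in the model, and that of Slc16a1 with no filter. The Y-linked level was near 0 in all treated KO libraries and, of the treated WT libraries, in library 1.

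Whether Romiplostim acted differently by genotype was tested with the interaction of genotype and treatment, for which 15.6% of all genes passed (5.53% positive and 10.0% negative). Vegfa and Hk2 were the members past the threshold, 2 of 33. Vegfa changed by -0.53 with Romiplostim in KO and 0.89 in WT on the log2 scale, a difference of -1.42 ± 0.26 (adjusted p = 0.00614). Its treated KO libraries were at 4.13, 5.89 and 4.76 FPKM and its untreated KO libraries at 8.92, 8.01 and 5.81 FPKM, which overlap, while the WT groups did not; the fitted changes had opposite signs. Hk2 changed by 0.16 in KO and -0.74 in WT, neither called, with a difference of 0.90 ± 0.25 (adjusted p = 0.0341). Hk2 took 2.62% ± 0.58 of hexokinase FPKM in treated KO and 1.83% ± 0.74 in untreated KO, against 3.32% ± 0.49 in treated WT and 5.80% ± 0.45 in untreated WT. The Vegfa interaction was lost with the Y-linked level in the model (-1.20, adjusted p = 0.0747; range 0.000159 to 0.0747 over its alternatives), and that of Hk2 under 11 of 22 alternatives, 9 of which left out a library (adjusted p 0.000721 to 0.0839 over all).

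Genes of the same pathways outside the 34 members went both ways. Of 27 tested further genes of glycolysis and pyruvate use, 11 were higher and 4 lower in untreated KO against untreated WT, beside 22.1% and 23.0% of all genes. G6pdx, the entry to the pentose phosphate pathway, averaged 153 ± 30.8 FPKM in KO and 67.9 ± 5.67 FPKM in WT (adjusted p = 0.000178). Slc2a6, a hexose carrier, was also higher (log2 difference 1.31 ± 0.22), and Ldhd, which oxidises D-lactate, was lower (-2.01 ± 0.23). With Romiplostim in KO, 2 of the 27 rose and 8 fell, beside 10.7% and 18.9% of all genes. G6pdx and the hexose carrier Slc2a8 fell by 0.86 and 0.87 on the log2 scale, and Mpc2, a subunit of the mitochondrial pyruvate carrier, rose by 0.63. In WT 1 of the 27 was called (1.84% of all genes), Ldhd, at 2.53 ± 0.283 FPKM in treated and 6.50 ± 2.76 FPKM in untreated WT (adjusted p = 0.0495). Between the treated genotypes limma called 0 of the 27 (3 at an unadjusted p under 0.05), beside 1.37% of all genes, and for the interaction 1 was positive (Ldhd, 1.36) and 5 negative, among them Slc2a6 (-1.43) and G6pdx (-0.82), beside 5.53% and 10.0% of all genes.

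Of 28 tested further HIF regulators and targets, 6 were higher and 9 lower in untreated KO against untreated WT, beside the same 22.1% and 23.0% of all genes. The heme-degrading enzyme Hmox1 averaged 363 ± 114 FPKM in KO and 28.1 ± 9.05 FPKM in WT (adjusted p = 5.74e-06). Ero1l, an oxidase of protein folding, was higher as well (17.4 ± 0.377 FPKM in KO and 7.98 ± 0.395 FPKM in WT), as was the Kit ligand Kitl (log2 difference 1.64 ± 0.24), and the kinase Pim1 was lower (-1.88 ± 0.24). With Romiplostim in KO, 3 rose and 10 fell (10.7% and 18.9% of all genes), the calls with the smallest p being Hmox1 (-3.65), Kitl (-1.64), Ero1l (-0.77) and Ndrg1 (-1.31). In WT, Hmox1 was the 1 gene called of the 28, beside 1.84% of all genes. Its level was 2.83 ± 0.245 FPKM in treated and 28.1 ± 9.05 FPKM in untreated WT (limma, adjusted p = 0.000286). Between the treated genotypes, Hmox1 was higher in KO (2.87) and Ndrg1 (-1.49) and Pim1 (-1.16) were lower, beside 0.632% and 0.741% of all genes. The interaction was positive for 3 genes and negative for 4 (5.53% and 10.0% of all genes), with Fam162a at 0.84, Mif at 1.07, Ero1l at -0.82 and Kitl at -1.33. Hmox1 is also highly expressed in macrophages, whose markers summed to 45.6 to 91.7 FPKM in treated KO libraries, 749 to 2266 in untreated KO, 10.7 to 19.2 in treated WT and 35.3 to 52.9 in untreated WT, and their part in the Hmox1 values was not tested. Kitl was at 1.71, 2.82 and 5.20 FPKM in untreated KO libraries, and the stromal and endothelial markers, at 3.35, 3.34 and 4.65 in the same libraries and 0.71 to 1.65 in untreated WT libraries on the log2(FPKM + 1) scale, were called higher in untreated KO (6 of 6 tested) and lower with Romiplostim in KO (5 of 6); their part in the Kitl values was not tested.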

How the data were processed

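RNA was amplified with the SMARTer Ultra Low kit and sequenced as paired reads, per the labels' protocols. The authors deposited 1 table of FPKM for 12 libraries; TopHat2, Cufflinks 2.2.1 and the build mm10 are named, per the submitters' processing notes, with their roles, the annotation and the use of strand not given in the sources used here. Symbols were matched for 34490 of 35275 gene IDs. Low FPKM values were read as whole fragments to estimate depth, and 52.8% to 57.6% of those worth up to 20 fragments were whole within 0.05, too few to recover counts. The depth given is this estimate, and FPKM is relative to the other RNA of a library.

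Genes with at least 1 FPKM in 3 or more libraries (12823) were tested with limma 3.58.1 (R 4.3.3) on log2(FPKM + 1), with the 4 group means, a mean-variance trend and p adjusted over all tested genes; fold changes of low genes are understated on this scale. Per-library values were printed for at most 8 called members per comparison with the smallest p and for isozyme pairs, and at most 4 called genes of each further list, of which 1 is not reported here. Coordinates are mm10 (GENCODE M21), and promoters are from RefSeq (GRCm38.p6), matched for 32 of 34 members. The members and lists were chosen with earlier results of these data known. The procedure was tested on simulated data. Replicate numbers in the labels were checked for pairing, by a rule of a correlation over 0.1 in every pair. Deviations from the group means correlated at 0.403, 0.123 and 0.383 for the WT groups, which met the rule, and the other comparisons did not. The Y-linked level differed within such pairs. It was 3.85 in untreated and 0.0316 in Romiplostim WT library 1, and 0.175 in untreated and 3.82 in Romiplostim WT library 2. The numbers thus do not show that paired samples came from the same animal. Alternatives varied the pseudocount, filter, scaling, samples fitted, weights, block, Y-linked level and each library.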

Additional observations from a re-analysis of the deposited data

Results flagged for a closer look

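By the test of the difference itself, the effect of Romiplostim was called different between the genotypes for 2 members. Neither call remained with the Y-linked level in the model. That level was high in all untreated and near 0 in all treated KO libraries. For Vegfa, the log2 change with Romiplostim in KO minus that in WT was -1.42 (limma, adjusted p = 0.00614). The change was -0.53 in KO, where the groups overlapped, and 0.89 in WT, with all 3 treated libraries above the untreated ones. For Hk2, the same difference was 0.90 (limma, adjusted p = 0.0341), from 0.16 in KO and -0.74 in WT, and it was lost under 11 of 22 alternatives. These 2 of 33 tested members stand beside 15.6% of all genes with a called interaction, a larger share.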

How the results depend on the processing

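In untreated KO against untreated WT, the counts of called genes and members stayed within 1.5 times under every alternative; with the replicate block they were 5788 genes and 15 members, and 11 to 20 members without 1 library. Romiplostim in WT called 236 genes and 1 member. It called 122 genes with the filter at 5 FPKM, 628 genes and 3 members with only the groups compared, 2488 and 4 with array weights (whose estimation stopped early), 864 and 3 with the replicate block in WT libraries alone, 642 and 3 without both untreated KO library 3 and Romiplostim KO library 1, 2 members with a pseudocount of 0.1, 0 with no filter, and 65 to 469 genes and 0 to 3 members without 1 library. Romiplostim in KO called 3797 genes and 12 members: 2021 and 1 with only the groups compared, 7138 and 19 with array weights, 770 and 0 with the Y-linked level, 7 members with no filter, and 2368 to 4308 genes and 5 to 13 members without 1 library. The treated genotypes gave 176 genes and 2 members: 326 genes with a pseudocount of 0.1, 57 and 1 with no filter, 270 with quantile normalization, 57 and 0 with only the groups compared, 4327 and 16 with array weights, 28 and 0 with the Y-linked level, 343 genes without both libraries, and 31 to 1559 genes and 0 to 8 members without 1 library. The interaction gave 1996 genes and 2 members: 6220 and 16 with array weights, 261 and 0 with the Y-linked level, 1 member with no filter, 6 with median-of-ratios, 5 with quantile normalization, 7 without both libraries, and 1088 to 2687 genes and 1 to 7 members without 1 library. Of the single members, Tpi1 reversed with Romiplostim in KO after quantile normalization (-0.054, adjusted p = 0.843), which turned the higher share of interaction calls to 55.5%, against 35.5%. The causes were not tested. Leaving out 1 library took the untreated KO call of Pfkm (adjusted p up to 0.0982; untreated KO 1 or WT 1), Aldoa (0.107; KO 2, WT 1 or 2), Pgk1 (0.0502; KO 2), Eno2 (0.12; KO 1 or 2, any WT), Pfkfb4 (0.118; KO 1 or 3, WT 1 or 3) and Slc2a3 (0.182; KO 2 or 3, WT 1 or 2, treated KO 3, any treated WT). With Romiplostim in KO, it took the calls of Ldha (0.0954; any untreated KO, treated KO 3), Pdk3 (0.0827; untreated KO 2 or 3, treated KO 2 or 3), Pfkfb3 (0.0756; untreated KO 2, treated KO 1 or 3), Pgk1 (0.061; treated KO 3), Slc16a3 (0.0727; untreated KO 3, treated KO 1 or 3), Tpi1 (0.117; any untreated KO, treated KO 2 or 3, any treated WT), Pklr (0.142; any untreated KO, treated KO 2 or 3, untreated WT 3, any treated WT) and Vegfa (0.17; untreated KO 1 or 2, treated KO 1 or 3, any untreated WT, treated WT 1 or 3), and in the interaction that of Hk2 (0.0839; untreated KO 1 or 2, treated KO 3, any WT). The alternatives added after seeing the data were the Y-linked level, the WT-alone block and leaving out both libraries.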
